A study of Saccharomyces cerevisiae with 21 samples.

Results

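A set of 32 genes of Saccharomyces cerevisiae was followed through drying and rehydration, genes that make ergosterol, control that synthesis, or store and release sterols as esters. They were taken by name from the platform's gene symbols, each read by its brightest probe set that names a single gene, and all 32 were measured, out of 5656 genes on the array. By role they were 9 genes of the mevalonate pathway, 3 genes of squalene and lanosterol formation, 13 genes of the late sterol steps, 2 regulators and 5 sterol ester enzymes. No measured value entered the rule for the membership or the role groups, but both were chosen with earlier results of these data known.

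RNA came from the diploid laboratory strain BY4743, of the S288C background, on 21 Affymetrix arrays in 7 groups of 3. By the known genotype of this strain, which the labels do not spell out, HIS3, LEU2 and URA3 are deleted on both chromosome copies and LYS2 and MET15 on a single copy each, and every group carries these deletions. Control cells were grown at 30 degrees C in rich glucose medium (YPD) to an absorbance of 0.8, spun down, and sampled right after being resuspended at 22 to 25 degrees C in that medium diluted 20-fold. The rest of the suspension was dried in dishes of 15 ml at the same temperature. The 50% dry cells were taken after 18 h of drying. Drying went on to 42 h for the dry cells, which were then kept for 72 h at 20% relative humidity. Rehydrated cells came from dry dishes that received the diluted medium again, 4 dishes being pooled, and were taken after 15, 45, 90 or 360 min at 22 to 25 degrees C. The labels did not say whether the 3 arrays of a group came from separate cultures, so p-values measure only the spread between these samples, which may be technical.

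Ergosterol is the main sterol of fungal membranes and takes the place that cholesterol has in animals. Cells build it from acetyl-CoA through mevalonate, farnesyl diphosphate and squalene, close squalene into lanosterol, and then trim and desaturate lanosterol in a chain of late steps. Several of these steps consume molecular oxygen, and some need heme. The zinc cluster activators Upc2 and Ecm22 turn on many ERG genes when sterol runs low, and surplus sterol is joined to a fatty acid and kept in lipid droplets.

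Per-array values below are the deposited linear signals, in the order of replicates 1, 2 and 3. Changes are differences of group means of log2(signal + 17.74) on quantile normalized arrays, printed with the standard error of the limma fit and with n = 3 arrays per group. A gene was called at a limma adjusted p under 0.05 (Benjamini-Hochberg over 9275 probe sets) and at least a 2-fold change, and "rose" and "fell" are kept for called genes. Array signals are relative to the rest of each array, so fewer cells with a transcript and less of it per cell cannot be told apart. Array medians ran from 140.6 at 360 min to 205.7 in 50% dry cells. The median change over all 5656 genes after normalization stayed within 0.08 of 0 in the steps up to 90 min and was -0.18 at 360 min against dry, -0.17 at 360 min against control and -0.14 at 360 against 90 min. RNA quality was read from ACT1, whose 3′ minus 5′ log2 signal was -0.57 ± 0.33 (SD) in control, 0.76 ± 0.26 in 50% dry, 0.94 ± 0.03 in dry and 2.71 ± 0.17 in 360 min cells. That of SPT15 was 1.48 ± 0.17, 1.64 ± 0.20, 1.05 ± 0.66 and 2.74 ± 0.28 in the same groups, and that of SRB4 was 1.00 ± 0.24, 1.38 ± 0.13, 1.61 ± 0.31 and 2.36 ± 0.02, after 2.65 ± 0.26 at 90 min. The part of RNA quality in the results was not tested. URA3 stayed at or under 5.8 on every array, while HIS3, whose deletion allele in this strain keeps part of the gene, averaged 837 in control cells. LEU2 averaged 90.8 in control cells, with up to 107.5 on 1 array, and 19.5 to 50.2 in the other groups, a signal not due from a gene deleted on both copies, and its source was not tested. The 9 haploid-specific genes summed to 556 to 952 per array and the 8 sporulation genes to 104 to 295, with no single sporulation gene above 77.9. The first sum hides opposite moves of single genes. MFA1 averaged 15.0 in control, 261 in dry and 329 in 45 min cells, with up to 433 on 1 array. MF(ALPHA)1 averaged 105, 17.6 and 9.7 in the same groups. The source of these signals was not tested.

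Of the 32 members, 31 had means that differed over the course (limma F test over 7 groups), as 92.4% of all genes did, and the exception was ERG29 (adjusted p = 0.0558). The highest of the 7 normalized group means lay in control cells for 23 members, at 360 min for 4, at 45 min for 2, and in 50% dry, dry and 15 min cells for 1 each. In 50% dry against control cells 15 of 32 members fell and none rose, against a background of 16.7% of genes lower and 16.8% higher. At an unadjusted p under 0.05 the members split into 20 lower and 4 higher. Their median change was -0.78, beside 0.03 over all genes. From 50% dry to dry cells 2 fell and 1 rose (background 6.15% lower and 3.57% higher), and in dry against control cells 16 fell and 1 rose (background 20.7% and 21.7%).

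Early in rehydration no member was called by limma at 15 min against dry, at 45 against 15 min or at 90 against 45 min, where 0.0177%, 0% and 0.0177% of all genes were higher and 0.053%, 0.0177% and 0.0884% lower. At an unadjusted p under 0.05, 0 members were higher and 2 lower in the first of these steps, 3 and 4 in the next, and 9 and 4 in the last. Over the whole span from dry to 90 min, a comparison added after the others were seen, 2 members fell and none rose, with 8 higher and 8 lower at an unadjusted p under 0.05 (background 2.23% lower and 1.26% higher). From 90 to 360 min 3 members rose and 1 fell (background 3.04% and 4.08%). At 360 min against dry cells 6 rose and 5 fell (background 8.43% and 15%), and against control cells 2 were higher and 17 lower (background 18.4% and 26.5%).

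**Figure D1:**
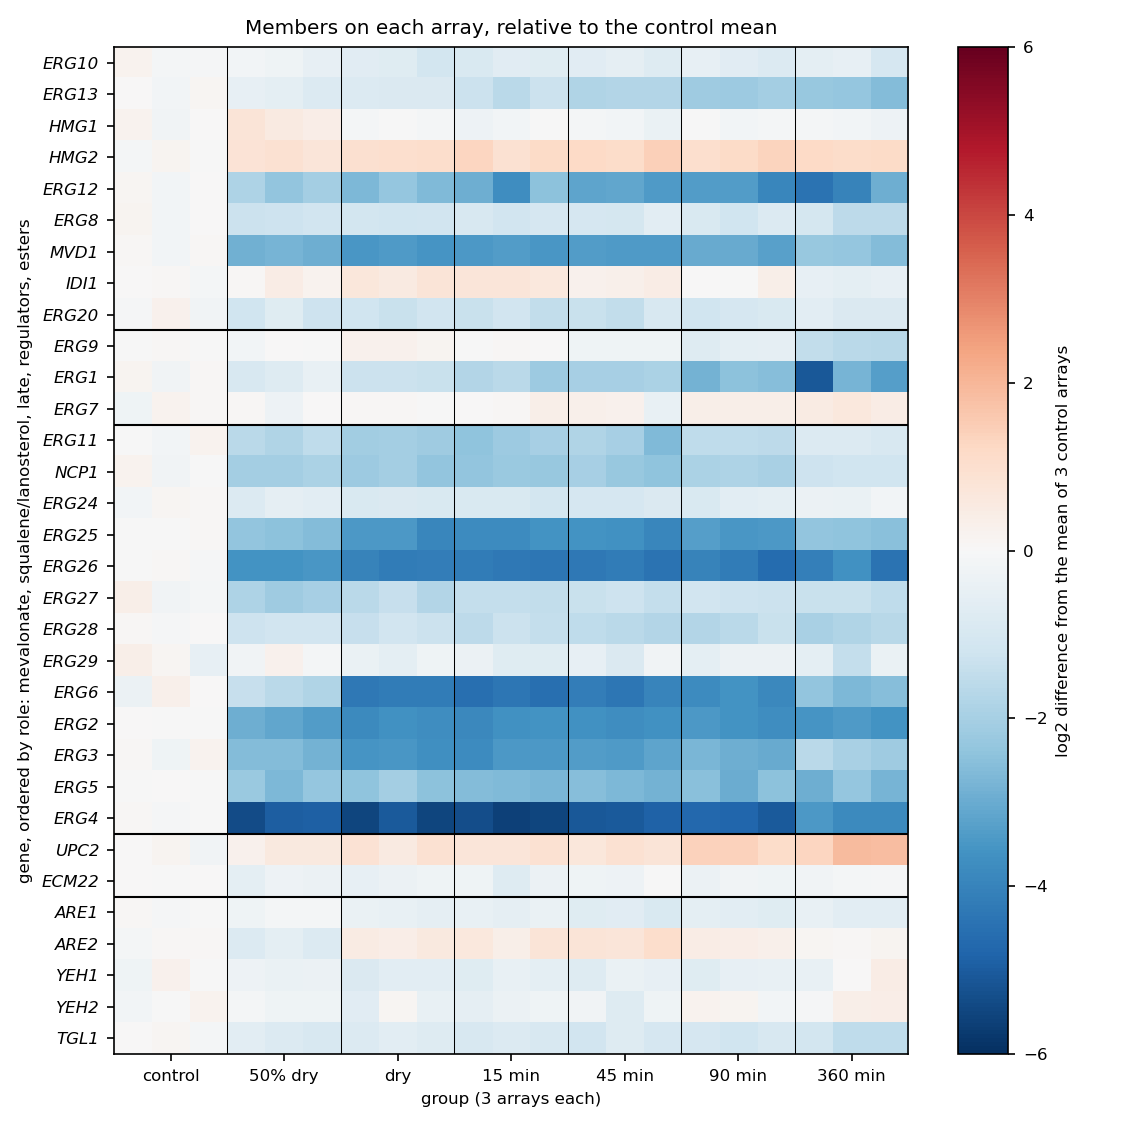
Heat map of the 32 members (rows, grouped by role) on all 21 arrays (columns, 3 per group), coloured by the log2 difference from the mean of the 3 control arrays. Most late sterol genes are below control on all arrays from 50% dry onward, ERG4 at -5.07 in 50% dry cells, while HMG2 and UPC2 lie above it.

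No other group shared the hybridization run or the scan day of the control arrays. Against control cells, group, run and day therefore cannot be told apart, nor can water loss and the hours spent in diluted medium. The 90 min arrays and the 360 min arrays each had a run of their own as well, shared with no other group. They shared a scan day with each other, and with no other group. Group, run and day therefore cannot be told apart in 90 or 360 min against dry cells either. The same holds for 90 min against the sampling before it. From 90 to 360 min the scan day was the same, but group and run cannot be told apart.

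Calls among the mevalonate genes went both ways over the course. Of the 9, 4 fell in 50% dry against control cells (MVD1, ERG12, ERG8 and ERG20), none rose, and 5 were not called. The background was 16.7% lower and 16.8% higher. The median change of the 9 was -0.64. From dry to 360 min 1 rose and 3 fell (11.1% and 33.3%, background 8.43% and 15%), with a median of -0.10. At 360 min 1 was higher and 4 were lower than in control cells (11.1% and 44.4%, background 18.4% and 26.5%). At an unadjusted p under 0.05 none of the 13 late sterol genes was higher in 50% dry than in control cells, whereas HMG1, HMG2 and IDI1 were, by less than 2-fold.

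MVD1 (YNR043W), the decarboxylase that makes isopentenyl diphosphate from mevalonate diphosphate, gave signals of 1501, 1215 and 1479 on the control arrays, of 174, 192 and 182 in 50% dry cells and of 109, 126 and 105 in dry cells. Every dried array lay far below every control array. It fell by 2.86 ± 0.11 on the log2 scale on the way to 50% dry (adjusted p = 6.76e-14). At 360 min its signals were 195, 192 and 154, above those of dry cells and below those of control cells without overlap. It rose by 1.07 ± 0.11 from dry to 360 min (adjusted p = 1.55e-07). That rise was 0.59 with the deposited scaling, 0.75 with the offset at 50% of the median and 0.998 without 360 min replicate 1, each below the 2-fold limit.

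ERG12 (YMR208W), mevalonate kinase, went from 911, 686 and 808 in control to 214, 154 and 199.6 in 50% dry and 120.4, 160.1 and 121 in dry cells, and fell by 2.09 ± 0.32 in the first of these steps (adjusted p = 1.42e-05). At 360 min the signals were 21.9, 32.1 and 77.0, spread over more than a 3-fold range. The fall from dry to 360 min, -1.23 ± 0.32 (adjusted p = 0.00278), was not called with median-centred arrays (-0.93), without 360 min replicate 1 (-0.90), with the offset at 50% of the median (-0.65), or with the mean of the gene's 4 probe sets (-0.31). The other 3 probe sets averaged 96.8, 103 and 80.0 in dry and 115.5, 45.1 and 77.5 in 360 min cells, so that the deposited mean of 1 of these 3 was lower by over 2-fold. All 4 probe sets were lower in 50% dry than in control cells on average, with 215, 712, 801 and 377 in control and 160, 175, 189 and 98.4 in 50% dry cells.

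ERG8 (YMR220W), phosphomevalonate kinase, acts just before MVD1. Its signals were 1369, 1036 and 1205 in control and 458, 489 and 538 in 50% dry cells, a fall by 1.23 ± 0.14 on the log2 scale (adjusted p = 2.14e-07). They were 568, 528 and 537 in dry cells, and were still lower than control at 360 min (-1.39 ± 0.14, adjusted p = 2.66e-08). ERG20 (YJL167W), farnesyl diphosphate synthase, whose product also feeds dolichol, ubiquinone and protein prenylation, gave 2097, 2633 and 1937 in control and 909, 1284 and 937 in 50% dry cells. It fell by 1.05 ± 0.15 (adjusted p = 8.88e-06), close to the 2-fold limit. Without control replicate 2, 50% dry replicate 1 or 50% dry replicate 3 the change was -0.92, -0.97 or -0.96, and not called.

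ERG13 (YML126C), the synthase that makes HMG-CoA, had a lower mean at each sampling than at the one before. Its signals were 1723, 1544 and 1839 in control, 1105, 1065 and 937 in 50% dry, 946, 917 and 906 in dry, 447, 468 and 458 in 45 min and 246, 245 and 191 in 360 min cells. The 360 min arrays lay below all arrays of the other groups. The change to 50% dry, -0.64 ± 0.11, did not reach 2-fold, but from dry to 90 min ERG13 fell by 1.25 ± 0.11 and from dry to 360 min it fell by 1.54 ± 0.11 (adjusted p = 1.1e-09).

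IDI1 (YPL117C), isopentenyl diphosphate isomerase, had its highest normalized mean at 15 min. It gave 706, 689 and 618 in control, 1142, 1016 and 1178 in dry, 1158, 1115 and 1037 in 15 min and 358, 352 and 363 in 360 min cells. The dry arrays lay above the control arrays without overlap, by 0.68 ± 0.10, under 2-fold. It fell by 1.20 ± 0.10 from dry to 360 min (adjusted p = 1.63e-08). ERG10 (YPL028W), the thiolase that opens the pathway, was called in none of the comparisons and ran from 2500.1, 2067 and 2138 in control to 1223, 1360.2 and 920.0 at 360 min, with -0.71 ± 0.15 between these groups.

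The 2 genes for HMG-CoA reductase, the step that limits the flow into the pathway, had different profiles. HMG1 (YML075C), the form used in well-aerated cells, had signals of 1969.6, 1498 and 1754 in control, 2687, 2279.8 and 2092 in 50% dry, 1533, 1606 and 1501 in dry and 1345, 1289 and 1151 in 360 min cells. It was called in no comparison, with 0.57 ± 0.12 to 50% dry and -0.65 ± 0.12 from there to dry. HMG2 (YLR450W), the form tied to low oxygen, gave 1413, 1652 and 1485 in control, 2391, 2501 and 2249 in 50% dry, 2484, 2559 and 2674 in dry and 4067, 3462 and 3589 in 360 min cells. Every array of the other groups lay above every control array for HMG2. At 360 min it was higher than in control by 1.14 ± 0.11 (adjusted p = 2.64e-08). In dry against control cells its change of 1.00 ± 0.11 sat on the 2-fold limit, and it was 0.76 with the deposited scaling and 0.53 with median-centred arrays, neither called. It was between 0.94 and 0.996 without control replicate 1 or 3 or dry replicate 2 or 3, and again not called. The change of HMG1 minus that of HMG2 was -1.32 ± 0.21 from control to 360 min (SE, n = 3 arrays per group), with an exact two-sided permutation p = 0.1. That p is the smallest that 3 against 3 arrays allow, and adjusted over the 40 pair tests made it was 0.222.

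The 3 genes of squalene and lanosterol formation had different courses. Of these none was called in 50% dry against control cells, where at an unadjusted p under 0.05 none was lower or higher. In dry against control cells 1 of 3 fell (ERG1), and from dry to 360 min 2 of 3 fell (ERG1 and ERG9). The background of lower genes was 20.7% in the first of these comparisons and 15% in the second. The median change of the 3 was -0.07 in 50% dry against control cells and -1.82 from dry to 360 min. ERG9 (YHR190W), squalene synthase, which commits farnesyl diphosphate to sterols, had signals near those of control cells through drying. They were 2155, 2328 and 2180.2 in control, 1845, 2128 and 2067 in 50% dry, 2330.3, 2391 and 2228 in dry, 1208, 1413 and 1449.9 in 90 min and 618, 569.6 and 542 in 360 min cells. The 360 min arrays lay below all the others. From dry to 360 min ERG9 fell by 1.82 ± 0.08 (adjusted p = 1.53e-12), and from 90 to 360 min the change was -0.95 ± 0.08, just under 2-fold.

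ERG1 (YGR175C), squalene epoxidase, the first step that uses oxygen and the target of terbinafine, gave 1270.3, 907 and 1130.1 in control, 529, 623 and 789 in 50% dry, 463, 453 and 441 in dry, 121, 171 and 154 in 90 min and 15.0, 113 and 76.9 in 360 min cells. Its mean was lower at each sampling than at the one before. The change was -0.73 ± 0.36 to 50% dry (adjusted p = 0.0894, not called). In dry against control cells ERG1 fell by 1.31 ± 0.36 (adjusted p = 0.00346). It fell by 1.30 ± 0.36 from dry to 90 min, and it fell by 2.41 ± 0.36 from dry to 360 min (adjusted p = 1.18e-05). From 90 to 360 min it fell by 1.11 ± 0.36 (adjusted p = 0.0188) although the groups overlapped after normalization, and the call was lost without 360 min replicate 1 (-0.44), without 90 min replicate 2 (-1.04) or 3 (-1.08), with the offset at 50% of the median (-0.61), with median-centred arrays (-0.93), and in a fit of only these 2 groups (-1.11, limma adjusted p = 0.157). Without that array the fall from dry was -1.74. ERG7 (YHR072W), lanosterol synthase, was called in no comparison, with 327, 431 and 390.1 in control and 446, 516 and 422 at 360 min.

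The late sterol steps held most of the falls. Of the 13 genes, 11 fell in 50% dry against control cells (84.6%, background 16.7%), with a median change of -2.01. None rose (background 16.8%), and none was higher at an unadjusted p under 0.05 either. The remaining 2, ERG24 and ERG29, had changes of -0.66 ± 0.11 and -0.02 ± 0.25. In dry against control cells the same 11 fell (background 20.7%), with a median of -2.30. From dry to 90 min none of the 13 was called, with 6 higher and 1 lower at an unadjusted p under 0.05. From dry to 360 min 5 rose (38.5%) and none fell, beside a background of 8.43% and 15%. In that comparison 1 of the 13 was lower at an unadjusted p under 0.05. At 360 min 10 were still lower than in control cells (76.9%, background 26.5%).

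**Figure D2:**
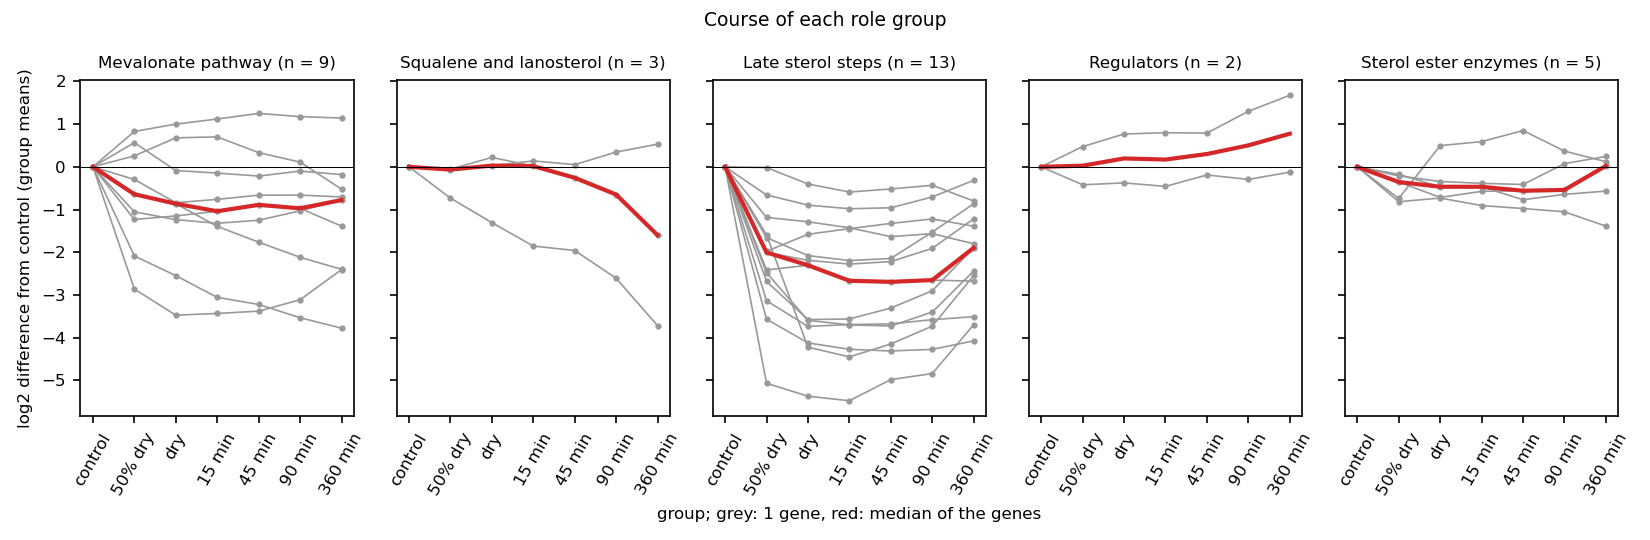
Change of each member from control (log2 difference of group means, y axis) over the 7 groups (x axis), in 1 panel per role group, with grey lines for genes and a red line for their median. The late sterol median was -2.01 in 50% dry and -1.90 in 360 min cells, and that of squalene and lanosterol formation went from -0.07 to -1.60.

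ERG4 (YGL012W), the reductase that makes ergosterol in the last step, had signals of 3705, 3903 and 3776 in control cells and of 96.2, 140.1 and 152 in 50% dry cells. No 50% dry array came near any control array. It fell by 5.07 ± 0.16 on the log2 scale (adjusted p = 3.58e-15), the largest change among the members in that comparison. In dry and 45 min cells it gave 83.4, 130.1 and 81.6 and 103, 109 and 126, and at 360 min 297, 231 and 222. It rose by 1.67 ± 0.16 from dry to 360 min (adjusted p = 5.29e-08), and the mean of its deposited signals was then 6.6% of that in control cells.

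ERG6 (YML008C), which adds the methyl group that sets ergosterol apart from cholesterol, fell in both drying steps. Its signals were 3224, 5179 and 4056 in control, 1793, 1549 and 1392 in 50% dry, 257, 276 and 278 in dry and 768, 609 and 668 in 360 min cells. None of these groups overlapped. ERG6 fell by 1.59 ± 0.15 to 50% dry and then fell by 2.63 ± 0.15 from there to dry (adjusted p = 1.82e-10). On the 1 dry array that shared a hybridization run with the 50% dry arrays its signal was 257. It rose by 1.68 ± 0.15 from dry to 360 min (adjusted p = 1.95e-08).

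ERG3 (YLR056W), the C-5 sterol desaturase, gave 3646, 3464 and 4057 in control, 693, 709 and 633 in 50% dry, 392, 406 and 346 in dry and 1166, 928 and 829 in 360 min cells. The fall to 50% dry was -2.68 ± 0.14 and the rise from dry to 360 min 1.68 ± 0.14 (adjusted p of 4.89e-12 and 8.15e-09). ERG11 (YHR007C), the lanosterol demethylase and target of azole drugs, came nearest to its control level among the genes that rose. Its signals were 3831, 4107 and 4516 in control, 1540.4, 1397 and 1719.7 in 50% dry, 1229, 1243 and 1131 in dry and 3142, 3148 and 2709.8 in 360 min cells. ERG11 fell by 1.66 ± 0.16 and then rose by 1.21 ± 0.16 from dry to 360 min (adjusted p = 2.3e-06). The mean of its deposited signals at 360 min was 72.3% of that in control cells. After normalization the difference from control at 360 min was -0.86 ± 0.16, under 2-fold but a wider gap than the deposited means give.

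NCP1 (YHR042W), the reductase that passes electrons to the cytochrome P450 enzymes Erg11 and Erg5, fell by 2.01 ± 0.11 to 50% dry and was 0.97 ± 0.11 from dry to 360 min, just short of 2-fold. Its signals were 3329, 2912 and 3145 in control, 783, 870.0 and 683 in dry and 1212, 1254 and 1248 in 360 min cells. ERG5 (YMR015C), the other P450, a C-22 desaturase, gave 497, 491 and 479 in control and 102, 68.1 and 99.7 in 50% dry cells and stayed between 42.6 and 125 on the arrays of the later groups. It fell by 2.41 ± 0.18 (adjusted p = 1.05e-09) and was not called from dry to 360 min (-0.37 ± 0.18).

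ERG2 (YMR202W), the C-8 isomerase, and ERG26, a sterol dehydrogenase of the demethylation at C-4, stayed low to the end. ERG2 had 4525, 5344 and 4788 in control, 811, 748 and 638 in 50% dry and 418, 468 and 395 in 360 min cells. It fell by 3.13 ± 0.10 to 50% dry (adjusted p = 4.54e-15), and its change from dry to 360 min was 0.23 ± 0.10 after normalization. The deposited signals went the other way, with 483, 533 and 495 in dry cells, above those of every 360 min array. ERG26 gave 1273, 1302 and 1161 in control, 87.5, 90.9 and 100.3 in 50% dry and 52.1, 66.3 and 38.9 in 360 min cells. At 360 min ERG26 was lower than in control by -4.07 ± 0.18 (adjusted p = 2.6e-13), the lowest value of the 32 members in that comparison.

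ERG25 (YGR060W), the oxidase that starts this demethylation, fell by 2.48 ± 0.11 to 50% dry and by 1.11 ± 0.11 from 50% dry to dry. The second fall was -0.96 both with the run as a block and without dry replicate 3, and not called. ERG25 then rose by 1.16 ± 0.11 from dry to 360 min, with signals of 539.9, 529 and 381 in dry and 874, 859 and 786 in 360 min cells. With the deposited scaling that rise was 0.79 and not called. ERG27 (YLR100W), the keto reductase, and ERG28, the protein that holds the complex together, fell by 1.98 ± 0.13 and by 1.18 ± 0.11 to 50% dry, and neither was called from dry to 360 min (0.19 ± 0.13 and -0.51 ± 0.11). The mean deposited signal of ERG27 went the other way, from 637 in dry to 548 in 360 min cells. ERG29 (YMR134W), an essential protein of the demethylation at C-4, had 217, 174 and 110.3 in control and 92.4, 47.9 and 104 at 360 min, groups with wide spread. ERG24 (YNL280C), the C-14 reductase, was at -0.90 ± 0.11 in dry and -0.32 ± 0.11 in 360 min against control cells, without a call.

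**Figure D3:**
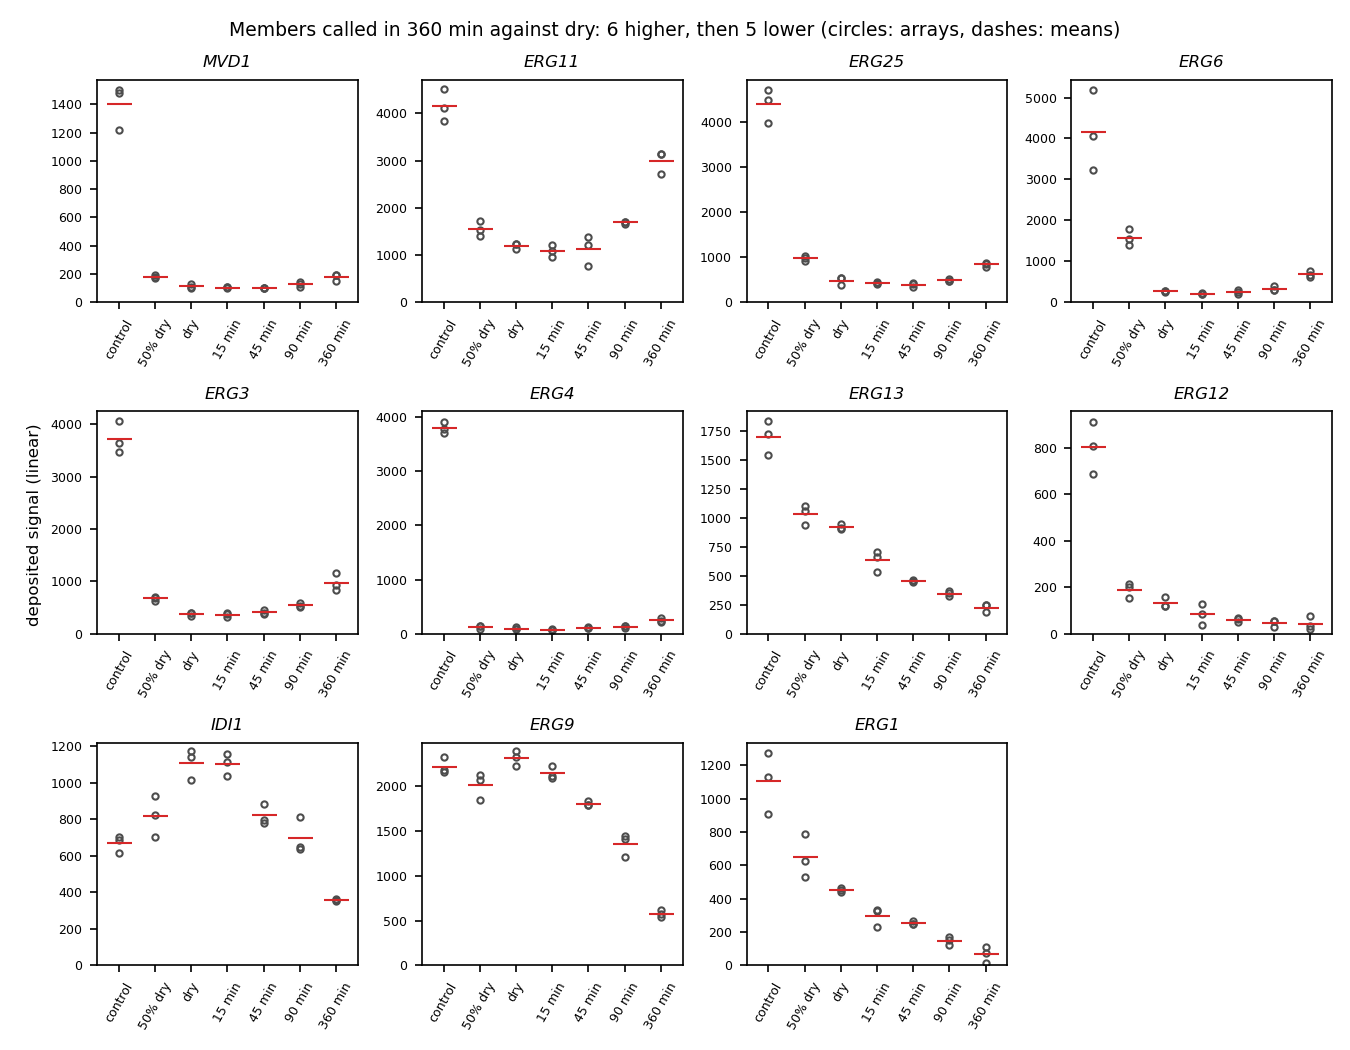
Deposited linear signal (y axis) of the 11 members called between dry and 360 min cells, on every array (circles) with group means (dashes), over the 7 groups (x axis). MVD1, ERG11, ERG25, ERG6, ERG3 and ERG4 turn up at 360 min, while ERG13, ERG12, IDI1, ERG9 and ERG1 are at their lowest mean there.

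Between dry and 360 min the called genes that rose and those that fell lay on opposite sides of lanosterol, with MVD1 as the exception. The split was less sharp at an unadjusted limma p under 0.05 without the 2-fold limit. There, 2 of the 9 mevalonate genes were higher and 3 lower. Of the 3 squalene and lanosterol genes 1 was higher and 2 lower, and of the 13 late genes 8 were higher and 1 lower. Of the 6 that rose from dry to 360 min, 5 act after lanosterol and MVD1 before it. All 5 that fell (ERG13, ERG12, IDI1, ERG9 and ERG1) act before it. Of these 5, ERG13 and ERG1 were already called lower at 90 min against dry, where ERG12, ERG9 and IDI1 were at -0.98 ± 0.32, -0.87 ± 0.08 and -0.57 ± 0.10, and from 90 to 360 min ERG1 was the 1 member called lower. All 6 that rose were among the 15 that had fallen by 50% dry, which is 40.0% of those 15, beside 22.2% of the 946 genes that fell in that step over the whole array. The drying comparison and the rehydration comparison share no arrays. Of the 17 members not called at 50% dry, 4 fell from dry to 360 min (23.5%, beside 14.6% of such genes on the array). No member was called higher at 50% dry. The 3′ minus 5′ difference was 0.94 in dry and 2.71 in 360 min cells for ACT1, 1.05 and 2.74 for SPT15, and 1.61 and 2.36 for SRB4, a shift in the same comparison whose part in these counts was not tested.

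**Figure D4:**
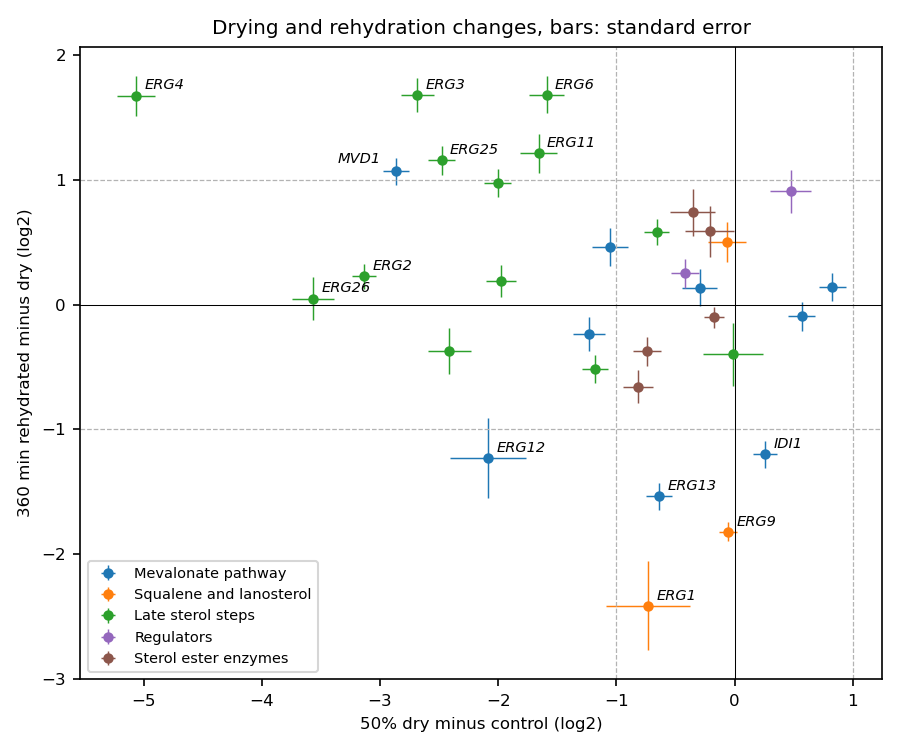
Change from control to 50% dry (x axis, log2) against change from dry to 360 min (y axis, log2) for the 32 members, coloured by role group, with standard errors as bars and dashed lines at 2-fold. ERG4, ERG3, ERG6, ERG25, ERG11 and MVD1 fill the upper left, and ERG1, ERG9, ERG13, IDI1 and ERG12 the bottom.

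The scaling of the 360 min arrays bears on these counts. With the deposited scaling 4 members were higher and 6 lower in 360 min than in dry cells, with median-centred arrays 7 and 4, and the median change of the members was -0.14 and 0.33, beside -0.46 and 0.00 over all genes. From 90 to 360 min the counts were 3 higher (ERG3, ERG4 and ERG6) and 1 lower (ERG1) as normalized here, 0 and 2 with the deposited scaling, and 4 and 0 when centred. The count was 2 higher and 0 lower without 90 min replicate 2 or without 90 min replicate 3. The 3 rises in this step were 1.01 ± 0.14, 1.14 ± 0.16 and 1.19 ± 0.15, and with the deposited scaling 0.80, 0.89 and 0.98. ERG3 was also under 2-fold without 90 min replicate 2 (0.98) or 3 (0.95) and without 360 min replicate 1 (0.87).

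By use of oxygen, a grouping taken from the chemistry of the steps with the values known, ERG1, ERG11, ERG25, ERG3 and ERG5 consume molecular oxygen. All 5 were called lower in dry than in control cells (background 20.7%), with a median of -2.30. The 13 late sterol genes, which include all of these but ERG1, had the same median, and 11 of them fell. By 360 min ERG3, ERG11 and ERG25 had risen from dry cells, ERG1 had fallen and ERG5 was not called (background 8.43% higher and 15% lower).

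Of the 2 regulators, UPC2 was called higher at 360 min than in control cells and ECM22 was called in no comparison. UPC2 (YDR213W), the activator that takes over when sterol is scarce, had low signals of 53.0, 57.3 and 39.6 in control, 68.3, 92.2 and 97.0 in 50% dry, 114, 95.9 and 117 in dry, 144, 155 and 117 in 90 min and 118, 183 and 174 in 360 min cells. All arrays of the other groups lay above the control arrays. At 360 min it was higher than in control by 1.67 ± 0.17 (adjusted p = 6.16e-08), and in dry against control cells by 0.77 ± 0.17, under 2-fold. From dry to 360 min its change was 0.91 ± 0.17 (adjusted p = 0.000194), also under 2-fold, and it reached 1.11 without 360 min replicate 1. ECM22 (YLR228C), its paralogue, gave 689, 607 and 655 in control, 432, 534 and 540.3 in 50% dry and 435, 489.6 and 505 in 360 min cells. The change of UPC2 minus that of ECM22 from control to 360 min was 1.80 ± 0.20 (SE, n = 3 arrays per group). Its exact two-sided permutation p was 0.1, the smallest possible, and 0.222 when adjusted over the 40 pair tests.

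Of the sterol ester enzymes, none of the 5 was called at 50% dry against control. There, 2 were lower and none higher at an unadjusted p under 0.05. From 50% dry to dry 1 of the 5 rose (20.0%, background 3.57%). At 360 min 1 was lower than in control (20.0%, beside a background of 26.5%). ARE2 (YNR019W), the acyltransferase that carries most sterol ester formation in growing aerobic cells, was the one that rose. Its signals were 141, 158 and 158 in control, 91.2, 113 and 95.9 in 50% dry, 262, 244 and 278 in dry, 277, 277 and 347 in 45 min and 140.3, 136 and 139.8 in 360 min cells. The 50% dry arrays lay below the control arrays, and the dry arrays above both. ARE2 was at -0.74 ± 0.12 in 50% dry against control cells, under 2-fold, and rose by 1.24 ± 0.12 from there to dry (adjusted p = 1.86e-07), a rise that was 0.85 with the offset at 50% of the median and then not called. ARE1 (YCR048W), the other acyltransferase, linked to low oxygen and heme, went from 1117, 934 and 1014 in control to 794, 753 and 697 in dry and 569, 514 and 493 in 360 min cells, with -0.57 ± 0.08 over the whole course and no call. From 50% dry to dry the change of ARE1 minus that of ARE2 was -1.53 ± 0.11 (SE, n = 3 arrays per group). Its exact two-sided permutation p was 0.1, the smallest possible, and 0.222 when adjusted over the 40 pair tests.

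TGL1 (YKL140W), a steryl ester hydrolase of lipid droplets, had 573, 564 and 482 in control, 342, 386 and 346 in dry and 186, 144 and 138 in 360 min cells. Its mean at 360 min was the lowest of the course, -1.39 ± 0.13 from control (adjusted p = 1.54e-08). YEH1 and YEH2, the other hydrolases, gave weak signals. YEH1 had 74.5, 107 and 85.1 in control and 41.5, 62.8 and 53.8 in dry cells, with -0.72 ± 0.19 between them. YEH2 had 84.4, 91.3 and 109 in control and 56.4, 125 and 68.3 in dry cells, where 1 array stood above the others, and it was called in no comparison.

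**Figure D5:**
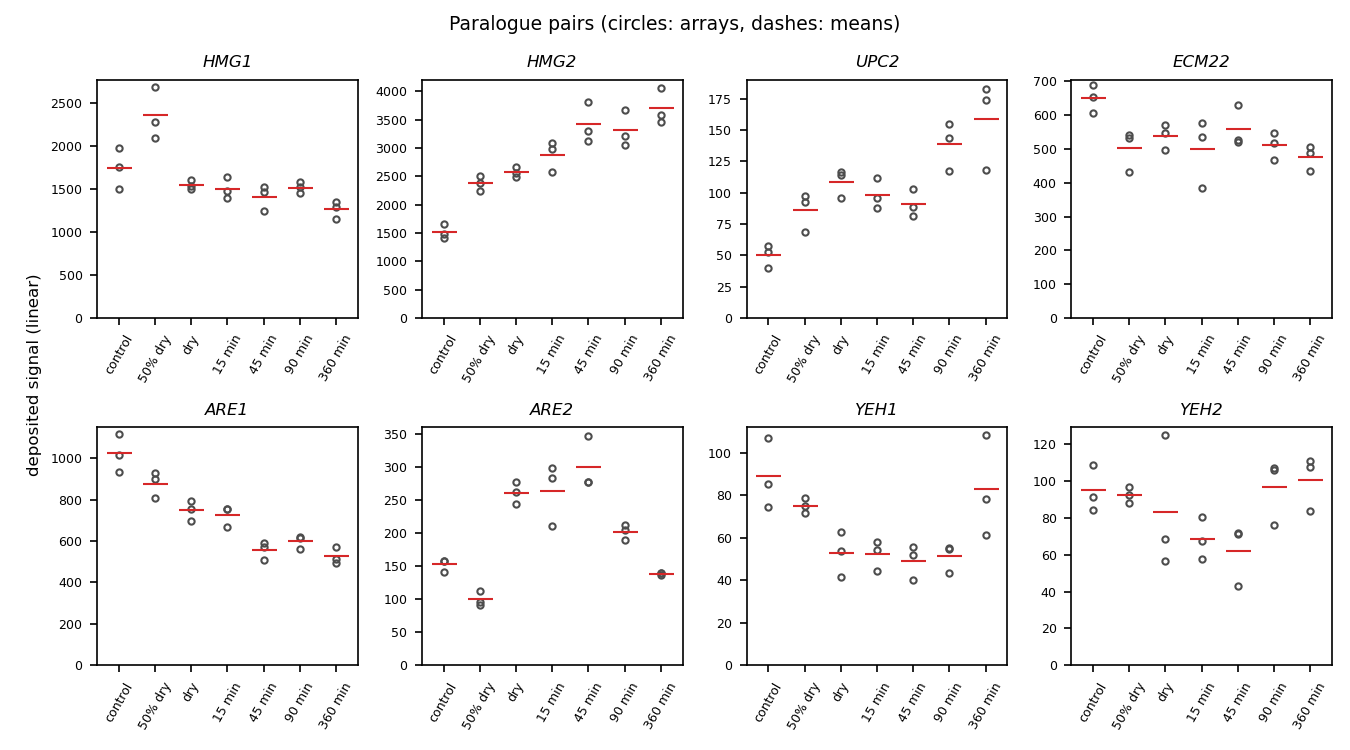
Deposited linear signal (y axis, each panel with its own scale from 0) of the 4 paralogue pairs on every array (circles) with group means (dashes), over the 7 groups (x axis). HMG2 lies above its control arrays in all other groups while HMG1 peaks in 50% dry cells, UPC2 climbs to 158 at 360 min, and ARE2 is highest at 45 min.

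The steps that shared hybridization runs allow values within a run. Within the run that held the 3 arrays of 50% dry and 1 of dry cells, the median change of the members was -0.24, beside -0.23 over all arrays. Within the run of 2 dry and 2 arrays of 15 min it was -0.07, beside -0.08, and within that of 1 array of 15 min and 3 of 45 min it was 0.04, beside 0.02.

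A further list of 43 genes of sterol uptake, transport, control and prenyl use held 42 that were measured. Of these 4 rose and 7 fell in 50% dry against control cells, none was called from 50% dry to dry, 2 rose and 8 fell from dry to 360 min, and 5 were higher and 8 lower in 360 min than in control cells. As shares of the 42 these were 9.52% higher and 16.7% lower at 50% dry (background 16.8% and 16.7%), 4.76% and 19.0% from dry to 360 min (background 8.43% and 15%), and 11.9% and 19.0% at 360 min against control (background 18.4% and 26.5%). All 3 shares of higher genes were thus below the background, and those of lower genes were equal to, above and below it. Their median change at 50% dry was 0.03, near that of all genes (0.03), where the 13 late sterol genes had -2.01. ROX1, the repressor of low-oxygen genes, had signals of 161, 141 and 136 in control, 936, 844 and 1137 in 50% dry, 726, 729 and 632 in dry and 52.4, 122 and 119 in 360 min cells. It rose by 2.51 ± 0.26 to 50% dry and fell by 2.42 ± 0.26 from dry to 360 min (adjusted p of 1.28e-07 and 3.03e-07).

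PRY2, a secreted sterol-binding protein gene, fell by 3.16 ± 0.11 at 50% dry, the largest fall of this list. NSG1, whose product shields Hmg2 from degradation, fell by 2.07 ± 0.11, and KES1 and OSH6, of the oxysterol-binding family of lipid carriers, fell by 1.71 ± 0.09 and by 1.74 ± 0.12. These 4 were also the largest falls in 360 min against control cells (-2.60 ± 0.11, -2.08 ± 0.11, -1.91 ± 0.09 and -2.003 ± 0.12). Sterol carriers of membrane contact sites gave calls in both directions. LAM4 and LAM5 rose by 1.23 ± 0.12 and by 1.32 ± 0.11 to 50% dry, and LAM6 rose by 1.24 ± 0.12 from dry to 360 min. YSP2, of the same family, fell by 1.57 ± 0.17 to 50% dry and was lower at 360 min than in control cells (-1.49 ± 0.17). YSP2 falls outside the rule for named genes and is named with its values known. NCR1, the vacuolar sterol transporter related to human NPC1, rose by 1.03 ± 0.09 to 50% dry.

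From dry to 360 min NPC2, the partner of Ncr1 in the vacuole, fell by 1.68 ± 0.12, NSG2 fell by 1.38 ± 0.08 and UBC7, a ubiquitin-conjugating enzyme that takes part in the degradation of Hmg2, fell by 1.35 ± 0.09. HAP1, a heme-responsive activator of sterol genes that is disrupted by a transposon in the S288C background, rose by 1.01 ± 0.20 (adjusted p = 0.000295), on the 2-fold limit. Its signals spread widely, with 1934.9, 1312.6 and 1525.9 in dry and 3970.1, 5399.9 and 2841.5 in 360 min cells. Calls of this further list were not checked under the alternative settings. At 360 min LAM6, LAM4, LAM5 and NCR1 were higher than in control cells by 2.57 ± 0.12, 2.01 ± 0.12, 1.53 ± 0.11 and 1.32 ± 0.09.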

How the data were processed

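RNA of 21 samples was hybridized to Affymetrix yeast arrays, and the deposited values are linear signal intensities, 1 per probe set. Per the labels, images were processed by the authors in Affymetrix's GeneChip Expression Analysis Software, and they combined probe sets with a linear mixed model; its version and the scaling are not given in the sources used here, and the 2% trimmed mean was 500.2 to 500.5 on every array. The files held 9335 probe sets, of which 60 control probe sets were left out. Of the 9275 tested, 6504 named a single gene, 328 several and 2443 none. Gene names came from the platform annotation, and locus tags from it and from RefSeq.

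An offset of 17.74, which is 10% of the median signal, was added before log2. Arrays were quantile normalized, because their medians spanned 36.7% of their mean, above a limit of 5%. A model of 7 group means was fitted in limma 3.58.1 (R 4.3.3) with a trended prior over all probe sets, leaving 14 residual degrees of freedom, and checked on simulated data. Background shares were counted over 5656 genes by their brightest probe set with a single gene. ERG12 had 4 such probe sets and the other 31 members had 1. Paralogue pairs were compared by exact permutation tests. Precision is limited by the 3 arrays per group.

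All members are accounted for. By the rule for named genes, array values were due for up to 4 called members per role group, by size of change, and for both genes of each pair, and those of further members were added. Of the further list, the 4 largest called changes in each direction are named. Members, lists and role groups were chosen with earlier results of these data known. The run records group the arrays into 6 hybridization runs by start time and 3 scan days. Alternatives changed the offset, scaling, fold minimum, variance trend, dim filter, probe set rule, replicate block, runs, samples in the fit and each array. The comparison of 90 min with dry cells, the fits without the 360 min group and the values within runs were chosen after seeing the data.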

Additional observations from a re-analysis of the deposited data

How the results depend on the processing

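Values of single genes under alternatives were compared for the called results of all members. Results that were not called were compared only for the genes of the paralogue pairs. Of these 2642 values, 2584 kept their side of the threshold, 36 lost a call and 22 gained one. Calls gained by members outside the pairs are not in these numbers. Among the called results 0 values turned direction, and direction was not checked for results that were not called. Of 71 called member results, 11 lost their call somewhere. With adjusted p alone and no fold minimum, the members called were 24 for 50% dry against control, 14 for dry against 50% dry, 28 for dry against control, 1 for 15 min against dry, 3 for 90 against 45 min, 15 for 360 against 90 min and 21 for 360 min against dry. From 90 to 360 min the count was 1 with an offset of 50% of the median and 2 with the deposited scaling. The median change of the members in 50% dry against control was -0.85 with an offset of 1% and -0.68 with one of 50% of the median. With the 50% offset it was -0.19 in dry against 50% dry, -0.93 in dry against control and -1.16 in 360 min against control. With the deposited scaling it was -0.73 in 50% dry against control, -0.17 in dry against 50% dry, -0.12 at 15 min, -0.0745 in 45 against 15 min, -0.10 in 360 against 90 min, -0.14 in 360 min against dry and -1.51 in 360 min against control. With median-centred arrays it was -0.93, -1.22 and -0.0068 in 50% dry against control, dry against control and 15 min against dry, and 0.12 and 0.33 in 360 against 90 min and against dry. Leaving out 1 array at a time gave medians of -0.28 to -0.20 for dry against 50% dry, -0.0909 to -0.0331 for 15 min, 0.0489 to 0.13 for 90 against 45 min, 0.0077 to 0.12 for 360 against 90 min (whose count ran from 2 to 6), 0.13 to 0.24 for 360 min against dry and -1.33 to -1.17 for 360 min against control. A replicate block left the counts of calls as they were, 15 for 50% dry against control and 11 for 360 min against dry. Same-numbered arrays did not deviate together (r from -0.24 to 0.24 over 63 pairs, with 5 over 0.1, and the own number highest in 22). No pairing by number was thus seen, but these correlations cannot show that same-numbered arrays were unlinked. The correlation within runs, taken as a random block, was -0.24. Scan day as a random block was not run, since each group lies within 1 day. Where a value moved, the cause was not tested.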
